A study of Mus musculus with 8 samples.

Results

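The farnesoid X receptor gene Nr1h4, the small heterodimer partner gene Nr0b2 (SHP), the liver receptor homolog gene Nr5a2 (LRH-1), the receptor tyrosine kinase gene Fgfr4 and its co-receptor gene Klb (beta-Klotho) were described in mouse primary hepatocytes. They were chosen by name as the bile acid receptor, its partner and the receptors connected with that partner. Each of the 5 had exactly 1 probe set with its symbol alone (17244070, 17419622, 17227515, 17287590 and 17437765, in that order) on an array of 41345 probe sets. All 5 passed the filter on low signals and stood among the 13845 genes tested. Hepatocytes of male C57Bl6J mice were treated for 6 h with the vehicle DMSO, glucagon at 100 nM, GW4064 at 2 µM or the combination. Glucagon is the fasting hormone that acts on hepatocytes through cyclic AMP, and GW4064 is a synthetic FXR agonist. Each treatment was run in 2 experiments, each on the pooled cells of 3 mice, which gave 8 arrays. All groups, DMSO included, were kept in low-glucose medium that held 100 nM dexamethasone, a synthetic glucocorticoid, and no array came from untreated liver.

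FXR is the nuclear receptor for bile acids and acts mostly as a heterodimer with a retinoid X receptor. When it is activated in hepatocytes it switches on SHP, a nuclear receptor relative that lacks a DNA-binding domain and that represses by binding other receptors, LRH-1 among them. LRH-1 drives the bile acid synthesis gene Cyp7a1 and also the SHP gene itself. A parallel route starts in the intestine, where FXR induces Fgf15, and the FGF15 hormone then signals to the hepatocyte through FGFR4 with beta-Klotho as the co-receptor.

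The promoter of SHP is printed because FXR signalling and LRH-1 meet on this gene, and that of the FXR gene because its signal had the lowest unadjusted p of the 5 members with glucagon. Both are the 250 bases before the transcription start in RefSeq on GRCm38.p6, read 5′ to 3′ on the strand of the gene.

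Nr0b2, chr4:133553126-133553375, plus strand: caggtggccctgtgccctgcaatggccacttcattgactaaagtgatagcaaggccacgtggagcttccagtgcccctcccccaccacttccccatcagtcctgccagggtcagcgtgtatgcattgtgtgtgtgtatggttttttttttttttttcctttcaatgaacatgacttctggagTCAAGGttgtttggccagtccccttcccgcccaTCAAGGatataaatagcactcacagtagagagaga

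Nr1h4, chr10:89506659-89506908, minus strand: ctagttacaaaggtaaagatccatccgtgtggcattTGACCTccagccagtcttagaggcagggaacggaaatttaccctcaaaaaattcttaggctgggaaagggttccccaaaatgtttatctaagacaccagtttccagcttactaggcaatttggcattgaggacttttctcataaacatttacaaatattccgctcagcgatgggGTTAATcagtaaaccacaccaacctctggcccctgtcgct

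The capitals in the SHP promoter mark the LRH-1 element TCAAGG, which lies 68 to 63 and again 35 to 30 bases before the start. Of 32851 mouse windows of 250 bases, 12.5% hold TCAAGG on either strand and 0.922% hold it 2 or more times. The capitals in the FXR window mark TGACCT, which is the receptor element AGGTCA on the opposite strand, 214 to 209 bases before the start, and GTTAAT, a part of the HNF1 motif, 40 to 35 bases before it. The element AGGTCA was found on either strand in 14% of the windows and GTTAAT in 6.43%. The tabulated start of Nr1h4 lies inside the annotated span of the gene, so the printed window need not cover every start of this gene. The Klb window held TGACG, the short cyclic AMP element found in 17.8% of windows, 146 to 142 bases before its start. The Fgfr4 window held no match to any motif searched, and the Nr5a2 table has a pair of windows, of which the upstream one held AGGTCA and GTTAAT once each. The remaining motifs searched on both strands were the FXR inverted repeat with a 1-base spacer (0.00609% of windows), the full cyclic AMP element TGACGTCA (1.55%) and the forkhead motif TGTTTAC (3.17%), and none of these matched in a member window. A match is a stretch of letters and says nothing of binding in these cells.

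Signals are deposited log2 values, folds are read back from the log2 differences, and differences are given with their standard error. A gene passed the filter if its signal exceeded the 40th percentile of the array on at least 2 arrays; that level lay between 3.13 and 3.27. Each contrast was tested with limma over all 13845 genes, and a gene was called at a Benjamini-Hochberg adjusted p below 0.05. All 9 hepatocyte markers, such as albumin, were above the filter level on every array. Array medians ranged from 3.42 to 3.57, and the GW4064 array of experiment 2 stood apart: its second principal component score was 40.2 against -14.8 to 5.42 on the other arrays, and its median olfactory receptor signal, a set of genes silent in liver, was 3.25 against 2.95 to 2.98. The values without it that are given below come from a fit of the other 7 arrays with the experiment as a block, unless another fit is named.

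Across the 5 members, glucagon went with a lower FXR signal and with higher FGFR4 and beta-Klotho signals, GW4064 with a higher SHP signal, and the LRH-1 values lay on both sides of 0. None of these differences passed the test over all genes on the full set of arrays. With glucagon averaged over both backgrounds (the 4 arrays with it against the 4 without), 0 of 5 members were called, where 1.32% of all genes were. An unadjusted p below 0.05 was found for 3 of the 5 members and for 2012 of the 13845 genes. With GW4064 averaged the same way, 0 of 5 members and 0% of all genes were called; 216 genes, SHP among them, had an unadjusted p below 0.05.

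**Figure D1:**
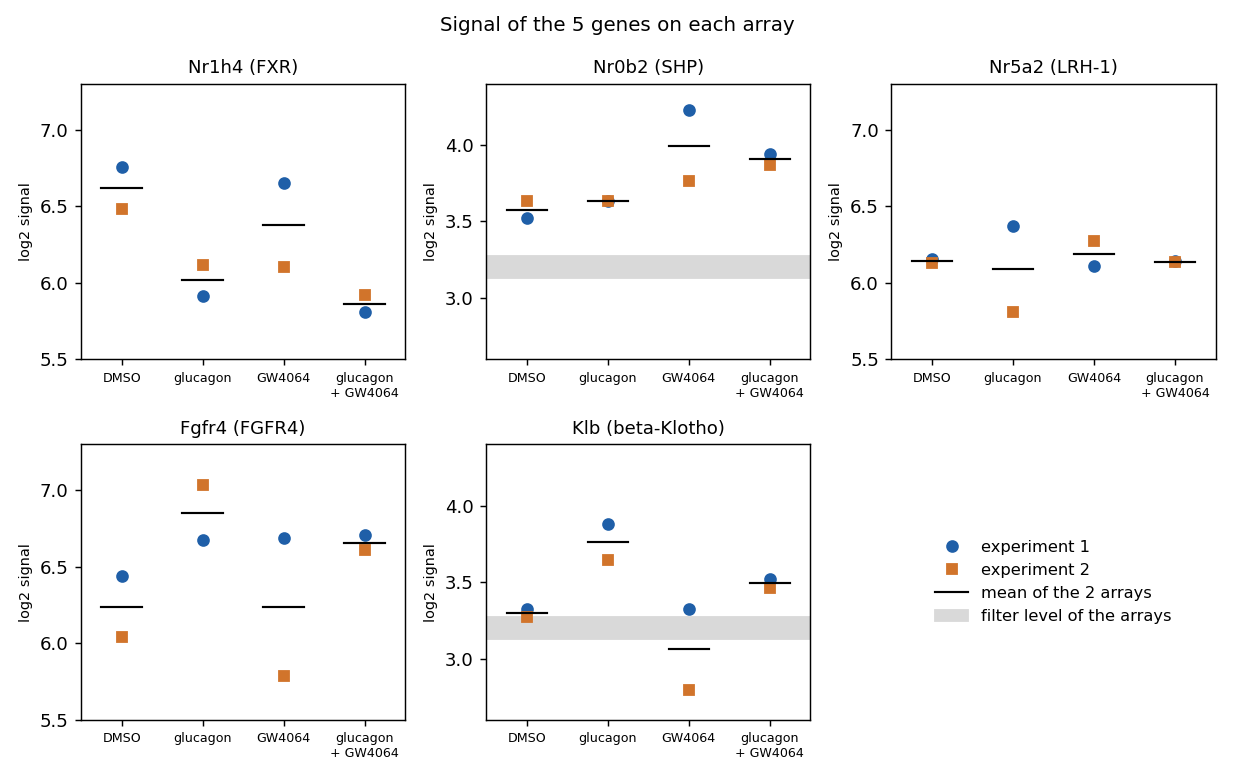
Deposited log2 signal of the 5 members on the 8 arrays, 1 panel per gene, with treatment on the x axis, points for the single arrays by experiment, a line for the mean of the 2 arrays and, for Nr0b2 and Klb, a grey band for the filter level of the arrays. Nr1h4 sits lower in both glucagon groups, Nr0b2 is higher on the 4 arrays with GW4064, and Klb is higher on the 4 arrays with glucagon. Nr5a2 has both its highest and its lowest value on glucagon arrays.

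The FXR signal was above the filter level on every array. In experiment 1 the Nr1h4 signal was 6.76 with DMSO, 5.91 with glucagon, 6.65 with GW4064 and 5.81 with both agents. In experiment 2 it was 6.48, 6.12, 6.10 and 5.92 in the same order. The 4 glucagon arrays lay at the bottom of the range, and the groups overlapped through 1 array, the GW4064 array of experiment 2, which was just below the glucagon array of that experiment. Group means were 6.62 ± 0.19 with DMSO, 6.02 ± 0.14 with glucagon, 6.38 ± 0.39 with GW4064 and 5.86 ± 0.08 with both agents (SD, n = 2).

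Averaged over both backgrounds, the Nr1h4 signal was lower with glucagon by a log2 difference of -0.56 (SE 0.15, 95% interval -0.90 to -0.22, a fold of 0.678), with an unadjusted p of 0.00610 and an adjusted p of 0.146. Within experiments the difference was negative in all 4 matched pairs. It was -0.84 without and -0.85 with the agonist in experiment 1, and -0.37 and -0.18 in experiment 2. With the experiment as a block the adjusted p was 0.0675, where 5.76% of all genes were called. The call turned on the array that stood apart: without it the difference was -0.70, with an adjusted p of 0.0378 in the fit without a block (2.56% of all genes called) and of 0.0164 in the fit with it (10.5% of all genes called).

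No difference of the receptor gene with its own agonist passed the test. Nr1h4 differed by -0.24 (SE 0.21) between GW4064 and DMSO and by -0.15 between both agents and glucagon, with adjusted p of at least 0.999 for both. The direction of the first rested on the array that stood apart, since without it the difference was 0.04. The interaction, which asks whether the glucagon difference was changed by the agonist, was 0.09 (SE 0.29), and -0.19 (SE 0.22) without that array.

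The summed signal of markers of a second FXR-expressing cell type was lower with glucagon. The summed linear signal of the 5 cholangiocyte markers measured, of 6 listed, was 79.3 to 97.6 on the 4 glucagon arrays and 117 to 274 on the 4 others, with 2 or 3 of the 5 above the filter level on each array. The median log2 signal of these markers did not separate the groups. It was 3.18 on the glucagon array of experiment 1 and 3.14 on the GW4064 array of experiment 2, the array that stood apart. Within each experiment the median was lower on the glucagon arrays than on the others. The sum therefore does not describe every marker. The part of these markers in the Nr1h4 result was not tested. In such a bulk sample, fewer cells of a type and less RNA per cell cannot be told apart.

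SHP, the best-known direct FXR target, lay near the filter level. In experiment 1 the Nr0b2 signal was 3.52 with DMSO, 3.63 with glucagon, 4.23 with GW4064 and 3.94 with both agents. In experiment 2 it was 3.63, 3.63, 3.76 and 3.87. All 4 arrays with GW4064 were above all 4 arrays without it, a separation that 0.571% of the genes tested had in this direction and 0.607% in the opposite one. The lowest of these 4, at 3.76, was the GW4064 array of experiment 2, the array that stood apart. Its median was 3.57 and its filter level 3.27, against 3.43 and 3.13 on the DMSO array of that experiment. Whether the 4 arrays stay above the others at equal array levels was not tested. The Nr0b2 signal on every array was above the filter level, by less than a log2 unit on 7 of the 8 arrays.

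The averaged GW4064 difference of Nr0b2 was 0.34 (SE 0.12, 95% interval 0.07 to 0.62, a fold of 1.27), with an unadjusted p of 0.0225 and an adjusted p of 1.00. After quantile normalization or median centring of the arrays, no member had an unadjusted p below 0.05 for averaged GW4064. The size of the Nr0b2 difference varied between the cell pools. GW4064 alone gave 0.70 in experiment 1 and 0.13 in experiment 2, whereas GW4064 on top of glucagon gave 0.31 and 0.24. Without the array that stood apart the averaged difference was 0.46 (SE 0.08, adjusted p = 0.491). Against DMSO alone the difference was 0.42 (SE 0.17, adjusted p = 0.999), in a contrast with 0% of genes called and 373 at an unadjusted p below 0.05, and it was 0.66 (SE 0.12, adjusted p = 0.622) without that array. The averaged glucagon difference of Nr0b2 was -0.02 (SE 0.12, 95% interval -0.30 to 0.26), and -0.14 (SE 0.08) without the array. The interaction was -0.15 (SE 0.24), in a contrast where 0% of genes were called and 149 had an unadjusted p below 0.05. Without the array the interaction was -0.39 (SE 0.16), in a fit that leaves 1 array in the GW4064 group.

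LRH-1, the receptor that SHP restrains on bile acid genes, had the narrowest range of the 5 members. In experiment 1 the Nr5a2 signal was 6.15 with DMSO, 6.37 with glucagon, 6.11 with GW4064 and 6.14 with both agents. In experiment 2 it was 6.13, 5.81, 6.27 and 6.13. The highest and the lowest array were both glucagon arrays, one of each experiment. The averaged difference was -0.05 for glucagon (95% interval -0.37 to 0.26) and 0.05 for GW4064 (95% interval -0.27 to 0.37). Both changed sign without the array that stood apart, to 0.04 and -0.04. Its glucagon difference was 0.22 in experiment 1 and -0.32 in experiment 2. The range over the 8 arrays, 0.56, was close to the median range of all tested genes, 0.54.

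FGFR4, the hepatocyte receptor for FGF15, had the widest range of the 5 members. In experiment 1 the Fgfr4 signal was 6.44 with DMSO, 6.67 with glucagon, 6.69 with GW4064 and 6.71 with both agents. In experiment 2 it was 6.04, 7.03, 5.79 and 6.61. The glucagon array of experiment 2 was the highest and the GW4064 array of the same experiment the lowest, and the groups overlapped through the GW4064 array of experiment 1. Glucagon alone went with a difference of 0.24 in experiment 1 and 0.99 in experiment 2. With the agonist present it was 0.02 and 0.82, so most of the glucagon difference was in the second cell pool.

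On average the Fgfr4 difference with glucagon was 0.52 (SE 0.21, 95% interval 0.02 to 1.02, a fold of 1.43, adjusted p = 0.328). It was 0.74 with an adjusted p of 0.0457 when the GW4064 array of experiment 1 was left out, a fit that called 5.07% of all genes and relied on the array that stood apart as the only one of its group. It was 0.30 without the array that stood apart (SE 0.14, 95% interval -0.05 to 0.65, adjusted p = 0.241). The averaged GW4064 difference was -0.10 (SE 0.21) and turned to 0.12 without the array that stood apart. Residual variation of Fgfr4 about its group means was 0.372, against a median of 0.173 over all genes.

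Beta-Klotho, which FGFR4 needs as a co-receptor to bind FGF15, also lay near the filter level. In experiment 1 the Klb signal was 3.33 with DMSO, 3.88 with glucagon, 3.32 with GW4064 and 3.52 with both agents. In experiment 2 it was 3.27, 3.65, 2.80 and 3.46, and the 2.80 of the GW4064 array lay below the filter level of that array, 3.27. All 4 glucagon arrays were above all 4 arrays without glucagon. The same separation was seen for 6.07% of all genes upwards and for 6.88% downwards.

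The averaged Klb difference with glucagon was 0.45 (SE 0.13, 95% interval 0.13 to 0.76, a fold of 1.36), with an unadjusted p of 0.0120 and an adjusted p of 0.187. It was positive in each of the 4 matched pairs, at 0.56 and 0.37 for glucagon alone in experiments 1 and 2 and 0.20 and 0.67 with the agonist present. With the experiment as a block the adjusted p was 0.0589. Without the array that stood apart the difference was 0.34. It was 0.58 when the GW4064 array of experiment 1 was left out, in a fit without the block. That fit relied on the array that stood apart, with Klb below the filter level, as the only one of its group. GW4064 gave -0.26 on average (SE 0.13, adjusted p = 1.00), made up of -0.00 and -0.48 for the agonist alone and -0.36 and -0.19 on top of glucagon. The -0.48 rests on the array that stood apart; without it the averaged GW4064 difference was -0.15 (SE 0.08) and that of GW4064 against DMSO -0.03 (SE 0.13).

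**Figure D2:**
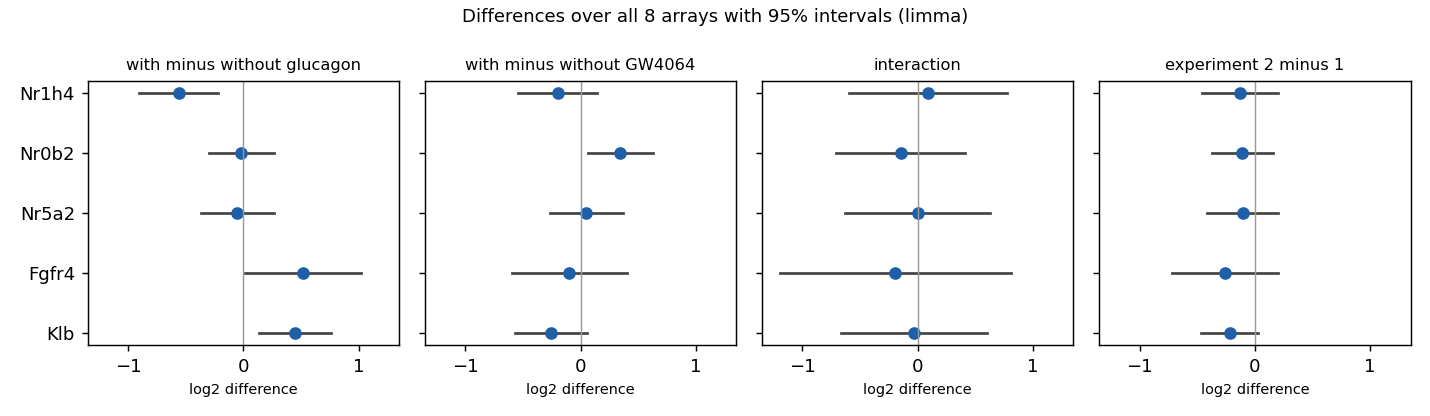
Fitted log2 difference of each member (rows) in 4 panels, for averaged glucagon, averaged GW4064, their interaction and experiment 2 minus 1; points are fitted values and lines the 95% intervals from limma. For glucagon the intervals of Nr1h4 (-0.90 to -0.22), Fgfr4 (0.02 to 1.02) and Klb (0.13 to 0.76) exclude 0 before adjustment, and for GW4064 that of Nr0b2 (0.07 to 0.62) does.

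The contrasts of single groups rest on 2 arrays a side. Against DMSO, glucagon alone gave -0.61 for Nr1h4 (SE 0.21, adjusted p = 0.588), 0.61 for Fgfr4 (SE 0.30, adjusted p = 0.824) and 0.46 for Klb (SE 0.19, adjusted p = 0.724). There 0 of 5 members were called, 0.116% of all genes were, and 0.925% with the experiment as a block. With GW4064 present, glucagon gave -0.52 for Nr1h4 (SE 0.21, adjusted p = 0.458), 0.42 for Fgfr4 and 0.43 for Klb (adjusted p = 0.492). The array that stood apart is 1 of the 2 controls of that contrast, and without it the values were -0.80 for Nr1h4 (adjusted p = 0.0933), -0.0066 for Fgfr4 and 0.23 for Klb. Again 0 of 5 members were called, 0.166% of all genes were, and 1.06% with the block. GW4064 on top of glucagon gave 0 calls among the members, 0% among all genes and 90 genes at an unadjusted p below 0.05. The interaction was between -0.20 and 0.09 for all 5 members, each with a standard error of 0.24 or more. Without the array that stood apart it ran from -0.62 for Fgfr4 (SE 0.29) to 0.18 for Nr5a2 (SE 0.25), with adjusted p of at least 0.999. These contrasts share arrays with one another and are not independent.

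**Figure D3:**
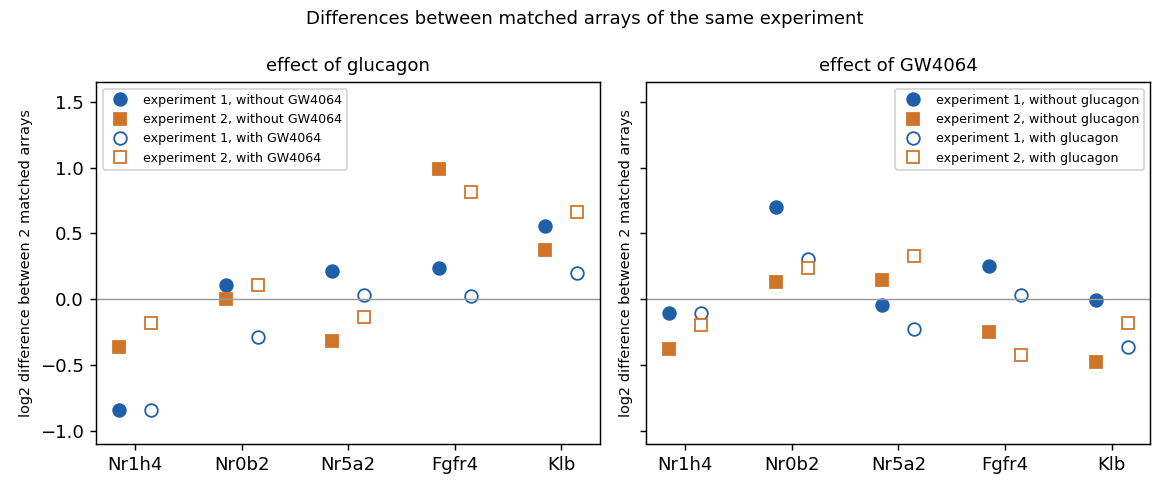
Log2 difference within each experiment for the glucagon pairs (left panel) and the GW4064 pairs (right panel) of each gene, with the experiments shown by colour and marker, open symbols for pairs that share the other agent and a line at 0. Nr1h4 is below 0 and Klb above 0 in all 4 glucagon pairs, Nr0b2 is above 0 in all 4 GW4064 pairs, and the Nr5a2 pairs lie on both sides of 0.

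No member was called between the cell pools. With treatment in the model, experiment 2 minus experiment 1 was -0.13 for Nr1h4, -0.11 for Nr0b2, -0.11 for Nr5a2, -0.26 for Fgfr4 and -0.22 for Klb. These were, without the array that stood apart, 0.013, 0.011, -0.20, -0.046 and -0.11. With all arrays the members' lowest adjusted p was 0.258, and 0 of 5 were called where 5.16% of all genes were. The summed signal of the 6 sinusoidal endothelial markers was 258 to 295 in experiment 1 and 158 to 176 in experiment 2, and that of the 6 stellate cell markers 94.0 to 104 and 141 to 148. The 6 Kupffer cell and macrophage markers summed to 1141 to 1312 in experiment 1 and 1348 to 1870 in experiment 2. On each array only 2 or 3 stellate markers and 2 to 5 Kupffer cell and macrophage markers were above the filter level. The median log2 signal of the stellate markers was 3.07 to 3.18 in experiment 1 and 3.03 to 3.09 in experiment 2. Their sums therefore do not describe every marker. The part of these cell types in the members' values was not tested.

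The receptor and the co-receptor of FGF15 varied together over the 8 arrays. Pearson's r between Fgfr4 and Klb was 0.815, and 0.591 on the 7 arrays without the one that stood apart. Of the 13844 other genes, 315 (2.28%) were at least as like Fgfr4 as Klb was, and 645 (4.66%) at least as like Klb as Fgfr4 was. Between the FXR and SHP signals r was -0.02. The arrays share treatments and cell pools, so such coefficients describe these 8 arrays alone.

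The genes most like each member were likewise found by Pearson's r over the 8 arrays. Spin4 (0.982), 9930111J21Rik2 (0.980) and Aqp9 (0.980), the last the hepatocyte glycerol channel, were the most like Nr1h4, and 198 genes had an r above 0.9 with it. Pi4ka (0.979), Chchd3 (0.971) and Ugt2b36 (0.970) were the most like Fgfr4, with 49 genes above 0.9. Adamts1 (0.979), Rbfox3 (0.974) and Cntrl (0.973) were the most like Klb, with 146 genes above 0.9. Few genes were as like SHP or LRH-1, with 6 and 7 genes above 0.9. The closest were Mir101c (0.964), Srsy (0.939) and Astx5 (0.924) for Nr0b2 and Serpinb6a (0.958), Tsfm (0.947) and Nup107 (0.944) for Nr5a2. Mir101c, at 2.68 to 4.32, and Rbfox3, at 2.99 to 3.41, reached below the filter level.

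The pathway genes were read against 1.32% of all genes called for averaged glucagon without the block, 5.76% with it and 5.16% between the experiments, so counts with the block start from a higher background.

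Around FXR, 15 of 18 listed partners and coregulators were tested. Ppargc1a, the PGC-1alpha coactivator that cyclic AMP induces and that can coactivate FXR, rose with glucagon by 3.46 (SE 0.30, adjusted p = 0.00589), from 3.08 to 4.11 on the 4 arrays without glucagon to 6.54 to 7.59 on the 4 with it. It was the only one of the 15 called without the block, and Foxa2 joined it with the block. Foxa2, a forkhead factor of the fasting liver, had values of 5.81 to 6.07 without glucagon and 6.34 to 6.81 with it (difference 0.62, SE 0.12, adjusted p = 0.0659, and 0.0293 with the block). Ppargc1a also differed between experiments, by 0.74 (adjusted p = 0.0146). Its signal without glucagon in experiment 1, 3.13 with DMSO and 3.08 with GW4064, lay just below the filter level. Rxra, the usual FXR partner, was at 6.87 to 7.44 on all arrays (glucagon difference 0.18, SE 0.12, adjusted p = 0.574). The list's median glucagon difference was -0.01, against -0.00 over all genes.

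Of 19 listed genes that FXR raises in liver, 17 were tested, and 0 of them were called with GW4064 on average. An unadjusted p below 0.05 was found for 4 of the 17 and for 216 of all 13845 genes. Of the 4, Abcb11, Abcb4 and Osgin1 were higher with GW4064 and Baat lower. Abcb11, the bile salt export pump and the standard hepatocyte readout of FXR, was at 6.64, 5.52, 7.69 and 6.07 in experiment 1 (DMSO, glucagon, GW4064, both) and at 6.61, 6.19, 7.05 and 6.48 in experiment 2. Within each experiment it was highest with GW4064 alone and lowest with glucagon alone. Its averaged GW4064 difference was 0.59 (SE 0.21, adjusted p = 1.00), and its glucagon difference -0.93 (SE 0.21, adjusted p = 0.102, and 0.0533 with the block), which is the sign that Nr1h4 had too. Without the array that stood apart these differences were 0.84 and -1.18. The averaged GW4064 difference was 0.60 for Abcb4, the phospholipid exporter (SE 0.16, adjusted p = 1.00), and 0.83 for Osgin1 (SE 0.34, adjusted p = 1.00). Both were higher with the agonist in all 4 matched pairs. Baat, which conjugates bile acids to amino acids, rose with glucagon by 0.65 (SE 0.09, adjusted p = 0.0277) and was the only one of the 17 called without the block. With the block Apoa5, Insig2 and Sdc1 were also called higher and Osgin1 lower; Insig2, Sdc1, Osgin1 and Abcb4 were chosen after seeing their values. Over the 17 genes the median difference was 0.05 for glucagon and 0.02 for GW4064, against -0.00 and -0.02 over all genes.

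**Figure D4:**
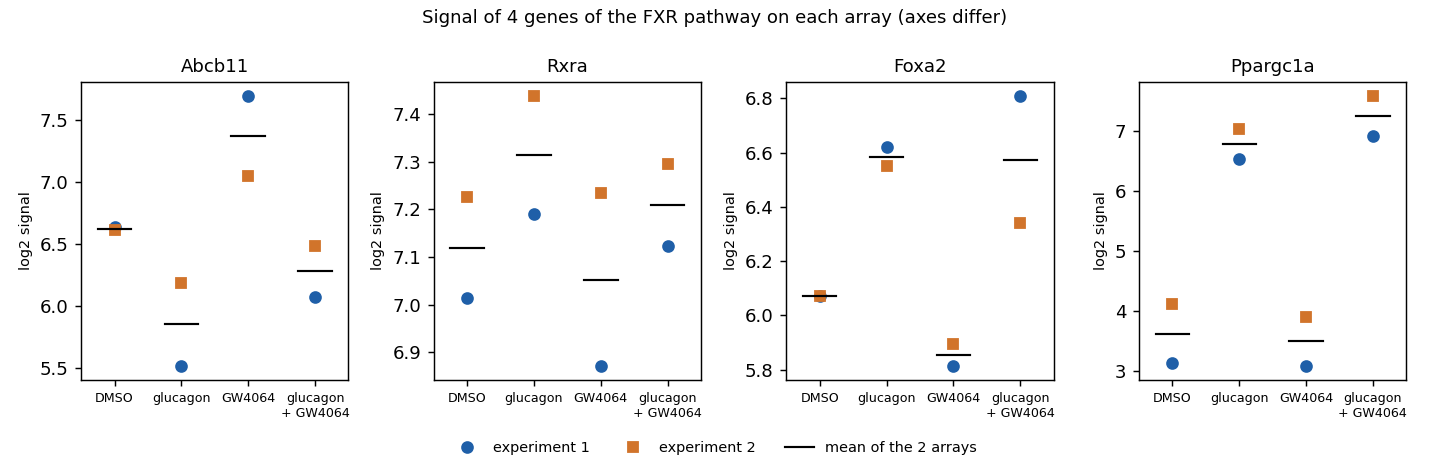
Deposited log2 signal of Abcb11, Rxra, Foxa2 and Ppargc1a on the 8 arrays by treatment, with the experiments shown by marker, a line for the mean of the 2 arrays and a y axis of its own for each gene. Ppargc1a and Foxa2 are higher on all 4 glucagon arrays, Abcb11 is highest with GW4064 alone in both experiments, and Rxra stays between 6.87 and 7.44.

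Beside LRH-1, the 13 nuclear receptors listed as binding SHP were all tested. Nr4a1, an immediate cyclic AMP response gene, rose with glucagon by 1.78 (SE 0.09, adjusted p = 0.000305), and 0 others were called without the block. With the block Pparg, the adipogenic receptor, was called lower at -1.01 (SE 0.21, adjusted p = 0.0268, against 0.0832 without). Hnf4a, the hepatocyte identity factor, differed by 0.20 with glucagon, and by 0.81 between experiments (adjusted p = 0.0536). The median of these 13 was 0.18 with glucagon. Of 9 corepressors that SHP recruits, 7 were tested and 0 were called with glucagon without the block. With it Kdm1a, a histone demethylase, was called lower (-0.49, SE 0.10, adjusted p = 0.0240, against 0.0792), and Sin3a differed between experiments by -0.60 (adjusted p = 0.0388). The corepressor list's median glucagon difference was 0.07.

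Downstream of SHP and LRH-1, 9 of 10 listed bile acid and sterol genes were tested and 0 were called with either agent without the block. Cyp7a1, whose product opens the classical route from cholesterol to bile acids, was the one not tested, with a highest signal of 3.38 on any array. Abcg5 and Abcg8, which together form the sterol exporter of the canalicular membrane, were called higher with glucagon with the block alone, by 0.94 (SE 0.22, adjusted p = 0.00921, against 0.125) and 0.54 (SE 0.24, adjusted p = 0.0403, against 0.353). Without glucagon in experiment 1, Abcg5 lay near the filter level, at 3.30 with DMSO and 3.09 with GW4064. Abcg8 was also higher in experiment 2 (0.55, adjusted p = 0.0419). So was Slc10a1, the sodium-dependent bile acid importer NTCP, at 6.12 to 6.45 in experiment 1 and 7.54 to 8.12 in experiment 2 (difference 1.52, SE 0.14, adjusted p = 0.00536). The list's median was 0.14 for glucagon and 0.45 for the difference between experiments.

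Around FGFR4 and beta-Klotho, 16 of 23 listed genes of FGF signalling were tested and 0 were called with glucagon or GW4064 without the block. The Fgf15 signal did not exceed 2.93 on any array, below the filter level. With the block Fgf1, the broad FGF receptor ligand, was called higher with glucagon (0.90, SE 0.30, adjusted p = 0.0134, against 0.235) and so was the Ras exchange factor Sos1 (0.48, adjusted p = 0.0471, against 0.170). Spry1, a feedback inhibitor of the pathway, was called lower (-0.50, SE 0.10, adjusted p = 0.0326, against 0.0638). Dusp6, the ERK phosphatase that FGF signalling induces, was lower in experiment 2 by -0.81 (adjusted p = 0.0185), while Fgf1 was higher there by 0.74 (adjusted p = 0.0271). Sos1 was no longer called with glucagon without the array that stood apart. The list's median glucagon difference was -0.03.

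Several of these pathway genes differed between the experiments. Against 5.16% of all genes called, 5 of the 17 FXR-raised genes were higher in experiment 2 (Vldlr by 1.04, Apoa5 by 0.95, Fgb by 0.71, and Fga and Fgg) and Apoc2 and Pltp were lower, at adjusted p from 0.00505 for Vldlr upwards. Fga, Fgg, Apoc2 and Pltp were chosen after seeing their values. Abcb11 was not among the genes called (0.10, adjusted p = 0.795).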

How the data were processed

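Each array was an Affymetrix MoGene 2.0 ST chip hybridised with labelled RNA of 1 treatment in 1 experiment. Per the labels, the authors processed the arrays in GeneSpring and pooled technical replicates; the deposited values are log2 signals, a scale read from their range, and the background correction, normalization and genome build were not given in the sources used here. Genes were named through GEO's platform annotation: 23521 probe sets had 1 symbol, 1814 several and 16010 none. Probe sets above the 40th percentile of the array on at least 2 arrays were kept, with the highest mean per gene, leaving 13845 genes.

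A model with 4 group means was fitted in limma 3.58.1 (R 4.3.3; lmFit, contrasts, eBayes, 4 residual degrees of freedom), two-sided, with Benjamini-Hochberg adjustment over all genes in each of 8 contrasts; the script was tested on simulated data. No test was stated by the labels. Replicates are separate cell pools. Without the block, p-values measure the spread between the 2 pools within a treatment, and arrays of a pool are treated as independent. With the block, p-values measure how far treatment differences varied between the pools. With so few arrays precision is low. The labels' experiment number marks a shared pool, and the differences between experiments correlated between treatments at r = 0.350 to 0.620, so the numbers pair the arrays and a fit with the experiment as a replicate block is given where it changed a call. Alternatives were that block (fixed or random), quantile normalization, median centring, no filter, the mean of probe sets, and leaving out arrays; leaving out an array with the block for the pathway lists was added after seeing the data.

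The members, the 6 pathway lists and the tests were chosen with earlier results of these data known. Named beside the members were, per list, the called genes (at most 4 by smallest p, otherwise the 2 with the smallest p), Abcb11, Rxra, Foxa2, Ppargc1a and Hnf4a, and the 3 genes most correlated with each member. Promoter windows are from RefSeq (GRCm38.p6), matched by symbol for 5 of 5 members.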

Additional observations from a re-analysis of the deposited data

How the results depend on the processing

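The direction of every member in every contrast was recomputed under each alternative. Of 590 recomputed values, 533 kept their direction and side of the threshold, 5 passed the threshold that they had missed, and 52 changed sign. No member was called on the full set of arrays, so there was none to lose. The differences that carry the report, Nr1h4, Fgfr4 and Klb for glucagon and Nr0b2 for GW4064 (each averaged over both backgrounds), kept their direction under all alternatives run.

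The numbers of the experiments pair the arrays. With the replicate block alone the count of members called stayed at 0 of 5 in every treatment contrast. With the replicate block and without the GW4064 array of experiment 2, 2 members were called with glucagon on average, Nr1h4 and Klb, where 10.5% of all genes were called. Leaving out single arrays gave 0 to 2 members called there (Fgfr4 and Klb without the GW4064 array of experiment 1, where 5.07% of all genes were called, and Nr1h4 without that of experiment 2, where 2.56% were). The averaged glucagon difference of Fgfr4 fell from 0.52 to 0.30 in the block fit without the GW4064 array of experiment 2.

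The same block fit without that array changed these signs. Nr1h4 was 0.039 for GW4064 against DMSO and -0.19 for the interaction. Nr5a2 was -0.13 for GW4064 against DMSO, 0.13 for both agents against GW4064, 0.18 for the interaction, 0.037 for averaged glucagon and -0.040 for averaged GW4064. Fgfr4 was 0.43 for GW4064 against DMSO, -0.0066 for both agents against GW4064 and 0.12 for averaged GW4064. Quantile normalization gave 0.014 for Nr5a2 (glucagon against DMSO), 0.10 for Fgfr4 (GW4064 against DMSO), -0.029 for Nr1h4 and 0.021 for Klb (interaction) and 0.00097 for Nr0b2 (averaged glucagon). Median centring gave -0.020 for Nr5a2 (GW4064 against DMSO), and 0.071 for Nr5a2 and 0.039 for Klb (interaction).

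Leaving out single arrays, signs changed within these ranges. Nr1h4 ranged from -0.52 to 0.032 for GW4064 against DMSO, from -0.18 to 0.36 for the interaction and from -0.24 to 0.013 between experiments. Nr0b2 ranged from -0.32 to 0.14 for both agents against GW4064, from -0.38 to 0.085 for the interaction, from -0.13 to 0.099 for averaged glucagon and from -0.18 to 0.011 between experiments. Nr5a2 ranged from -0.33 to 0.23 for glucagon against DMSO, from -0.031 to 0.13 for GW4064 against DMSO, from -0.23 to 0.33 for both agents against glucagon, from -0.13 to 0.028 for both against GW4064, from -0.28 to 0.28 for the interaction, from -0.19 to 0.088 and from -0.090 to 0.19 for averaged glucagon and GW4064, and from -0.20 to 0.045 between experiments. Fgfr4 ranged from -0.45 to 0.45 for GW4064 against DMSO, from -0.030 to 0.87 for both agents against GW4064, from -0.64 to 0.25 for the interaction and from -0.32 to 0.13 for averaged GW4064. Klb ranged from -0.50 to 0.023 for GW4064 against DMSO and from -0.30 to 0.23 for the interaction. The cause of these changes was not tested beyond the array left out. Where an array was left out, the lone array of its group is assumed to vary like the others. Nr0b2 and Klb lie close to the filter level, where signal over background limits the size of any difference.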
